A study of Mus musculus with 4 samples.

Results

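The Wnt, Fgf and Bmp signalling genes examined here were the 65 mouse genes whose symbol names a Wnt ligand (19 genes), a Frizzled receptor (Fzd, 10), an Fgf ligand (22), an Fgf receptor (Fgfr, 4) or a Bmp (10). Bmp15 was left out, and so was Bmp2k, which encodes a kinase and had 0 peaks. A peak of the histone mark H3K27me2 belonged to a gene when the deposited annotation named that gene as the one with the nearest transcription start site. By this rule 194 of 56036 peaks in 4 lists were assigned to 44 of the 65 genes, and the other 21 had no peak in any list. Of all 21631 protein-coding genes of chromosomes 1 to 19 and X, 9805 had a peak in at least 1 list.

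Wnt ligands bind Frizzled receptors with the co-receptors Lrp5 and Lrp6 and stabilise beta-catenin, or act on cell polarity without it. Fgf ligands bind receptor tyrosine kinases that signal through Ras and MAP kinases, except for a group of Fgf proteins that stay inside the cell. Bmp ligands belong to the TGF-beta family and act through serine/threonine kinase receptors and Smad proteins. These 3 pathways pattern the embryo from implantation onward, and many of their genes are known targets of Polycomb repressive complex 2, whose catalytic subunits EZH1 and EZH2 methylate lysine 27 of histone H3.

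H3K27me2 was measured by ULI-NChIP-seq, a low-input method in which chromatin is cut with MNase without crosslinking and the nucleosomes bound by an antibody are sequenced. The zygotes were at the PN5 stage, the last pronuclear stage before the first division, were freed of polar bodies, and were made in vitro from C57BL/6J eggs and PWK/PhJ sperm. The Ezh2m+/p+ group had mothers with floxed Ezh2 (Ezh2 fl/fl) and no Cre. The mothers of the Ezh2m-/p+ group were Ezh2 fl/fl with Gdf9-Cre, a transgene active in growing oocytes, so that the floxed exon was deleted in the egg, while the sperm brought an intact Ezh2 allele to both groups. Each genotype had 1 H3K27me2 library and 1 input library, each from a pool of zygotes, so differences between genotypes could not be checked in replicates, and they are given without p-values. The authors split the reads of each library into maternal (C57BL/6) and paternal (PWK) reads by strain variants and called peaks in each parental genome. The genotype of a list was taken from its name (WT for Ezh2m+/p+ and EZH2 for Ezh2m-/p+), and could not be checked, since a list of peaks does not show whether the floxed exon was read.

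The lists held 5744 maternal and 17863 paternal peaks for Ezh2m+/p+ zygotes, and 9606 and 22823 for Ezh2m-/p+ zygotes. All had a length of at least 999 bp and a fold of H3K27me2 over input of at least 5.00. Reads covered between 13.1% and 33.3% of a chromosome in the maternal and between 1.10% and 4.03% in the paternal genome of the Ezh2m+/p+ group, and between 20.8% and 45.1% and between 1.6% and 5.47% in Ezh2m-/p+ zygotes. Coverage and the number of listed peaks thus differed between parental genomes and between genotypes together with every count given below, and their part in those counts was not tested. Shares are given with 95% Wilson intervals, which cover the sampling of genes or peaks and not variation between collections of zygotes.

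The start sites of 4 members show what the peaks near these genes cover. A peak covered the start of Fgf12 in the paternal genome of the Ezh2m+/p+ group (fold 78.2, the largest of the 4 member peaks on a start site in that list), the start of Wnt16 in the maternal genome of Ezh2m-/p+ zygotes (fold 39.8) and the start of Wnt4 in the paternal genome of the Ezh2m-/p+ group (fold 7.88). At Bmp4, a peak with the same limits in the paternal lists of both genotypes was listed on a start site. Below are the 250 bases upstream of the start, 5′ to 3′ on the gene's strand, from RefSeq on GRCm38.p6 (mm10), in lower case with each CpG in capitals.
Bmp4: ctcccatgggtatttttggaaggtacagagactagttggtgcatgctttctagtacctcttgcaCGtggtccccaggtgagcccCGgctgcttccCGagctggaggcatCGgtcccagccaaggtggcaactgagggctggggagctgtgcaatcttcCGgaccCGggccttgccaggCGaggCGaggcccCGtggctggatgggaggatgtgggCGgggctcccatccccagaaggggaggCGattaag
Fgf12: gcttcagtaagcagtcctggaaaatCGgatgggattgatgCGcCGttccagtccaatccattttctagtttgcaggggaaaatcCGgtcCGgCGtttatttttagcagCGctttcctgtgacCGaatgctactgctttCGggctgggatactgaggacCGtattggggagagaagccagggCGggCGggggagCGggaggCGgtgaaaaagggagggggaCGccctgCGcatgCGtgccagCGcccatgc
Wnt16: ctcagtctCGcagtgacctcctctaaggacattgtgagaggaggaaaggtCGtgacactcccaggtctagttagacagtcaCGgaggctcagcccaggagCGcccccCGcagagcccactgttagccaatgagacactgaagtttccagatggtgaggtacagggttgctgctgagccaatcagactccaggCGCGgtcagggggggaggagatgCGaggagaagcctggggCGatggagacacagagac
Wnt4: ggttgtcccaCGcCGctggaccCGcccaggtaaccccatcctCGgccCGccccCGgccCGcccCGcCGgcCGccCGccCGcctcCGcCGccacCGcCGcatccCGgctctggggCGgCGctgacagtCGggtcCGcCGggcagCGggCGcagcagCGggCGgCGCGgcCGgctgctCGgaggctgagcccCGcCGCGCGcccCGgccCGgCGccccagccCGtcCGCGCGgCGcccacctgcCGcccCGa

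The Wnt4 stretch, chr4:137277385-137277634 on the plus strand, had a G+C share of 85.2% and 44 CpG, and lay wholly inside the Ezh2m-/p+ paternal peak. In Ezh2m+/p+ zygotes the nearest upstream peak lay at -490 bp from the start used in the list (negative is upstream), and 0 of these 250 bases were inside a peak. The Fgf12 stretch, chr16:28753244-28753493 on the minus strand, had 58.4% G+C and 18 CpG, and the Wnt16 stretch, chr6:22287977-22288226 on the plus strand, had 59.2% and 9, and both lay wholly inside the peak that covered the start. The Bmp4 stretch, chr14:46390670-46390919 on the minus strand, had 63.2% G+C and 11 CpG. Both Bmp4 peaks ended 70 bp inside the gene from the RefSeq start, so that they covered a start site of another Bmp4 transcript and none of the bases shown. A promoter was found for 46 of the 65 members, with a median of 64.6% G+C and 17.5 CpG in the 250 bases, beside 55.6% and 10 CpG over 17268 protein-coding genes. Members with a peak within 3 kb of a start site (11 with a promoter) had medians of 63.2% and 18 CpG, and members without any peak (17) of 64% and 15 CpG.

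Counted over genes, 16 of the 65 members had a maternal peak in Ezh2m+/p+ zygotes (24.6%, 95% interval 15.8 to 36.3%), where 14.6% of all 21631 protein-coding genes had one. In the paternal genome it was 22 members (33.8%, 23.5 to 46.0%) beside 20.3% of all genes. In Ezh2m-/p+ zygotes, 16 members had a maternal peak (24.6%, 15.8 to 36.3%) beside 21.1% of all genes, and 26 had a paternal peak (40%, 29.0 to 52.1%) beside 23.8%. The share of members was thus near that of all genes in the Ezh2m-/p+ maternal list and above it in the other lists, but this depended on the setting. For peaks over 2000 bp, 16.9%, 12.3%, 13.8% and 21.5% of members had a peak, beside 12.1%, 9.81%, 13.3% and 14.8% of all genes, and each member interval held the share of all genes. At a fold over 10 it was 12.3% in the Ezh2m+/p+ maternal list (6.37 to 22.5%) beside 7.34%, while the paternal shares of 32.3% (22.2 to 44.4%) and 30.8% (20.9 to 42.8%) lay above the 18.7% and 19.5% of all genes. When only the 5744 peaks of largest fold were kept in each list, the share of members was 20% in the Ezh2m+/p+ paternal, 15.4% in the Ezh2m-/p+ maternal and 16.9% in the Ezh2m-/p+ paternal list, beside 10.7%, 14.6% and 11% of all genes. When a peak was counted for each gene whose body with 3 kb on either side it overlapped, 12.3%, 26.2%, 18.5% and 23.1% of the members had a peak in the Ezh2m+/p+ maternal and paternal and the Ezh2m-/p+ maternal and paternal lists, beside 11%, 16.9%, 16.2% and 20.3% of all genes, so that by gene body the Ezh2m+/p+ maternal and the Ezh2m-/p+ shares held that of all genes within their intervals.

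**Figure D1:**
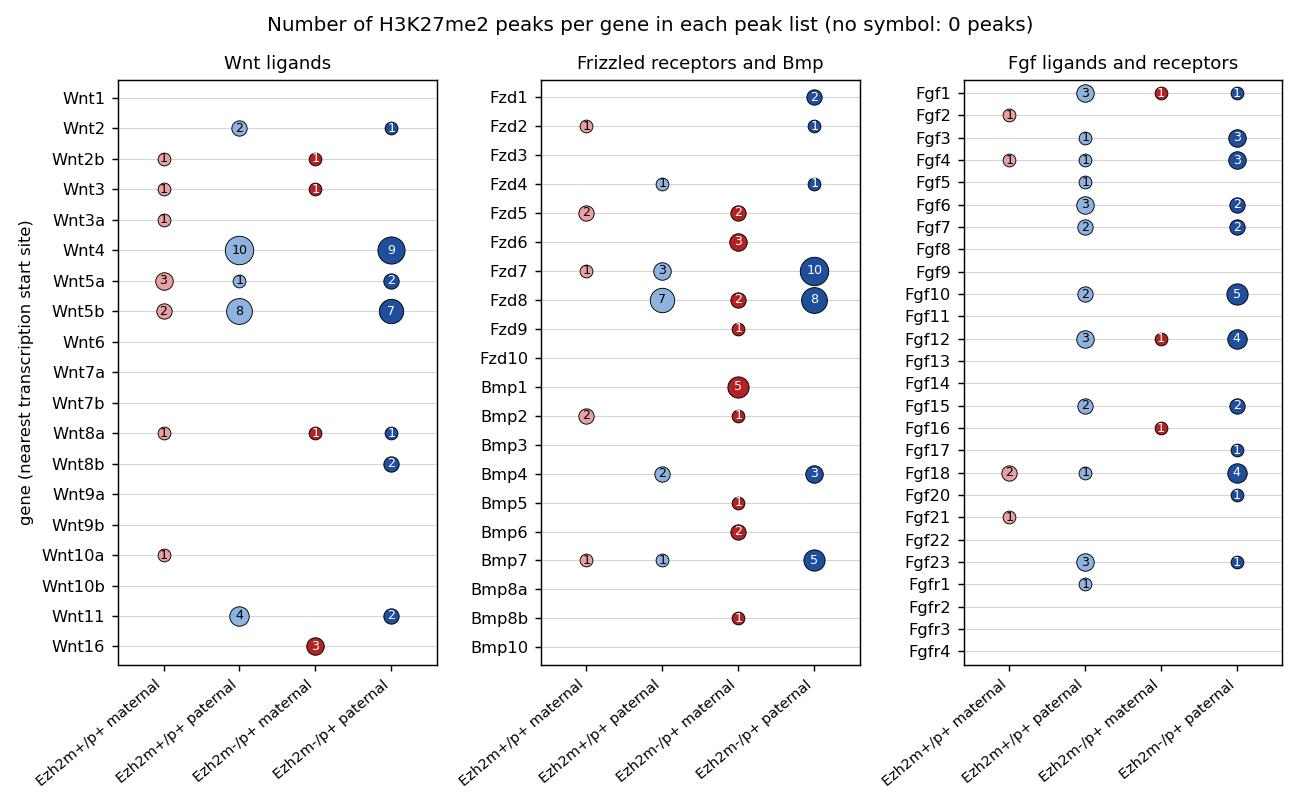
Number of H3K27me2 peaks assigned to each of the 65 genes (rows) in each of the 4 lists (columns). The figure in each circle is the number of peaks, circle area grows with it, and an empty place is 0 peaks. Wnt4 (10 and 9), Wnt5b (8 and 7) and Fzd8 (7 and 8) had many peaks in both paternal columns, Fzd7 had 3 and 10, and Bmp1 had 5 peaks in the Ezh2m-/p+ maternal column alone.

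Over both genotypes, 16 of the 44 members with a peak had maternal peaks alone (36.4%, 23.8 to 51.1%, beside 41.6% of all genes with a peak) and 17 paternal peaks alone (38.6%, 25.7 to 53.4%, beside 39.9%), so that the members together were near all genes. By family, 5 Bmp genes had maternal peaks alone (Bmp1, Bmp2, Bmp5, Bmp6 and Bmp8b), 1 had paternal peaks alone (Bmp4) and 1 had both (Bmp7). The Bmp pattern was that of Ezh2m-/p+ zygotes, with 5 genes maternal alone and 2 paternal alone, since Bmp1, Bmp5, Bmp6 and Bmp8b had no peak in Ezh2m+/p+ zygotes, where 1 gene was maternal alone, 1 paternal alone and 1 both. Of the Fgf ligands, 9 had paternal peaks alone, 3 maternal peaks alone (Fgf2, Fgf16 and Fgf21) and 4 both. Within the genotypes it was 9 paternal alone, 2 maternal alone and 2 both in Ezh2m+/p+ zygotes, and 10, 1 and 2 in the Ezh2m-/p+ group. Wnt ligands were divided into 5 maternal alone, 4 paternal alone and 3 both, and the Frizzled receptors into 3, 2 and 3. Of the Fgf receptors, Fgfr1 alone had a peak, in the paternal genome of the Ezh2m+/p+ group. These counts rest on few genes a family, and the difference between families was not tested.

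Within a genotype, few members had peaks in both parental genomes. In Ezh2m+/p+ zygotes 32 members had a peak, of which 10 had it in the maternal genome alone, 16 in the paternal genome alone (50%, 33.6 to 66.4%, beside 52.8% of all genes with a peak) and 6 in both (18.8%, 8.89 to 35.3%, beside 12.9%). In Ezh2m-/p+ zygotes 38 members had a peak, 12 maternal alone, 22 paternal alone (57.9%, 42.2 to 72.1%, beside 45.7%) and 4 in both (10.5%, 4.17 to 24.1%, beside 15.7%). Each of these shares held the share of all genes within its interval.

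The members with peaks in both parental genomes were Bmp7, Fgf4, Fgf18, Fzd7, Wnt5a and Wnt5b in Ezh2m+/p+ zygotes, and Fgf1, Fgf12, Fzd8 and Wnt8a in Ezh2m-/p+ zygotes, so that no gene was on both lists. The share of all genes on both such lists is not given, so this is not read as a result about the members. By gene body, 0 of 25 members of the Ezh2m+/p+ lists had both maternal and paternal peaks (beside 9.38% of all genes), so that the 6 genes named for it rest on the assignment to the nearest start. Even there the parental peaks lay apart. Of the 194 member peaks, 0 overlapped a peak of the other parental genome of the same zygotes, where the share of all peaks that did so was 0.418% of the maternal and 0.140% of the paternal peaks in Ezh2m+/p+ zygotes and 0.416% and 0.180% in Ezh2m-/p+ zygotes. Since these shares are so low, the 0 of 194 is not a result about the members. The nearest maternal and paternal peaks of Wnt8a were 601 bp apart, those of Fgf18 and of Fzd8 2201 bp, and those of Wnt5b 2801 bp. The other 6 genes had gaps between 14.8 kb (Fgf4) and 113 kb (Wnt5a).

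Between genotypes, the paternal lists shared more members than the maternal lists did, as they did over all genes. A paternal peak was listed for 28 members in either genotype and for 20 in both (71.4%, 52.9 to 84.7%), beside 66.6% of all genes. A maternal peak was listed for 27 members in either genotype and for 5 in both (18.5%, 8.18 to 36.7%), beside 31.0% of all genes. The 5 were Bmp2, Fzd5, Wnt2b, Wnt3 and Wnt8a. Both shares held that of all genes within their interval. Under other settings the paternal and maternal shares of members were 52.4% and 25% by gene body (beside 61.2% and 25.8% of all genes), 46.7% and 25% for peaks over 2000 bp (beside 50.9% and 26.6%), and 41.2% and 8.33% with lists of equal size (beside 37.6% and 27.6%). The interval of the last maternal share, 2.32 to 25.8%, did not hold that of all genes.

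The paths of single members between the genotypes are as follows. Of the 16 members with paternal peaks alone in Ezh2m+/p+ zygotes, 11 (68.8%, beside 70.3% of all such genes) also had them alone in the other genotype (Bmp4, Fgf3, Fgf6, Fgf7, Fgf10, Fgf15, Fgf23, Fzd4, Wnt2, Wnt4 and Wnt11), and of the 10 with maternal peaks alone, 4 did (40%, beside 51.8%), Bmp2, Fzd5, Wnt2b and Wnt3. All 6 members with peaks in both parental genomes of Ezh2m+/p+ zygotes had paternal peaks alone in Ezh2m-/p+ zygotes (95% interval of the share 61.0 to 100%), where 31.2% of the 860 genes of that class did. They are few genes, and by gene body the class was empty. Of the 33 members without a peak in Ezh2m+/p+ zygotes, 8 had maternal peaks alone in the other genotype (24.2%, 12.8 to 41.0%, beside 13.0% of such genes): Bmp1, Bmp5, Bmp6, Bmp8b, Fgf16, Fzd6, Fzd9 and Wnt16. Fzd2 was the only member with a maternal peak alone in Ezh2m+/p+ zygotes and a paternal peak alone in Ezh2m-/p+ zygotes.

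Positions were compared by an overlap of at least 1 bp. Of the 62 Ezh2m+/p+ paternal member peaks, 38 overlapped a paternal peak of Ezh2m-/p+ zygotes (61.3%, 48.8 to 72.4%), beside 66.1% of all peaks of that list. Of the 83 Ezh2m-/p+ paternal member peaks, 36 overlapped one of Ezh2m+/p+ zygotes (43.4%, 33.2 to 54.1%, beside 45.7%). In the maternal genome, 3 of 22 Ezh2m+/p+ peaks (13.6%, 4.75 to 33.3%, beside 9.47%) and 3 of 27 Ezh2m-/p+ peaks (11.1%, 3.85 to 28.1%, beside 5.78%) did so. At a fold over 10 in both lists, 33.9% of the Ezh2m+/p+ paternal member peaks (19 of 56) and 0 of 8 maternal ones overlapped, beside 45.3% and 5.90% of all peaks. The 3 maternal pairs were at Fzd5, Wnt2b and Wnt8a. Of the 20 members with paternal peaks in both genotypes, 16 had peaks that overlapped in position, and Fgf1, Fgf7, Fgf12 and Fgf23 had theirs at different places. The share of 80% (58.4 to 91.9%) was near the 82.1% of all genes. Of the 40 pairs of overlapping paternal peaks, 7 had the same start and end in both lists, at Bmp4, Bmp7, Fgf3, Fzd7 (2 pairs), Fzd8 and Wnt11. These were 7 of the 38 overlapping Ezh2m+/p+ member peaks (18.4%, 9.22 to 33.4%), beside 3.25% of all overlapping peaks of that list.

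Near start sites, 21 of the 65 members had a peak within 3 kb in at least 1 list (32.3%, 22.2 to 44.4%), beside 21.5% of all genes. Start sites here are those of any transcript that the lists name. For Bmp8b, Fgf2, Fgfr1 and most of the Bmp1 peaks the start was that of a shorter transcript inside the gene. The share of member peaks within 3 kb was 4 of 22 (18.2%, 7.31 to 38.5%) in the Ezh2m+/p+ maternal list, beside 15.8% of all peaks of the list, and 10 of 62 (16.1%, 9 to 27.2%) in the paternal list, beside 17.3%. In Ezh2m-/p+ zygotes it was 8 of 27 maternal peaks (29.6%, 15.9 to 48.5%), beside 16.5%, and 10 of 83 paternal peaks (12.0%, 6.68 to 20.8%), beside 16.9%. Of the 8 maternal peaks, 4 belonged to Bmp1. All of these but the peak 0.750 kb from a start lay 6.32, 14.3 and 30.5 kb inside the gene from its RefSeq start. The Bmp8b peak lay 17.3 kb inside, so the 29.6% is not a share of peaks near the outermost starts. In the paternal genome 5 members had a peak within 3 kb in both genotypes (Bmp4, Bmp7, Fgf15, Fzd8 and Wnt4), and in the maternal genome 1 did (Wnt8a). Of the members with such a peak in either genotype, these were 35.7% of 14 (16.3 to 61.2%) and 12.5% of 8 (2.24 to 47.1%), beside 47.8% and 8.68% of all such genes. The median distance of member peaks from the start site was 11.6 kb (3.43 to 50.8 kb) and 11.2 kb (2.81 to 28.7 kb) in the maternal lists of Ezh2m+/p+ and Ezh2m-/p+ zygotes, beside 21.0 and 20.1 kb over all peaks, and 25.5 kb (18.8 to 38.5 kb) and 36.9 kb (25.7 to 50.5 kb) in the paternal lists, beside 23.7 and 25.7 kb.

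**Figure D2:**
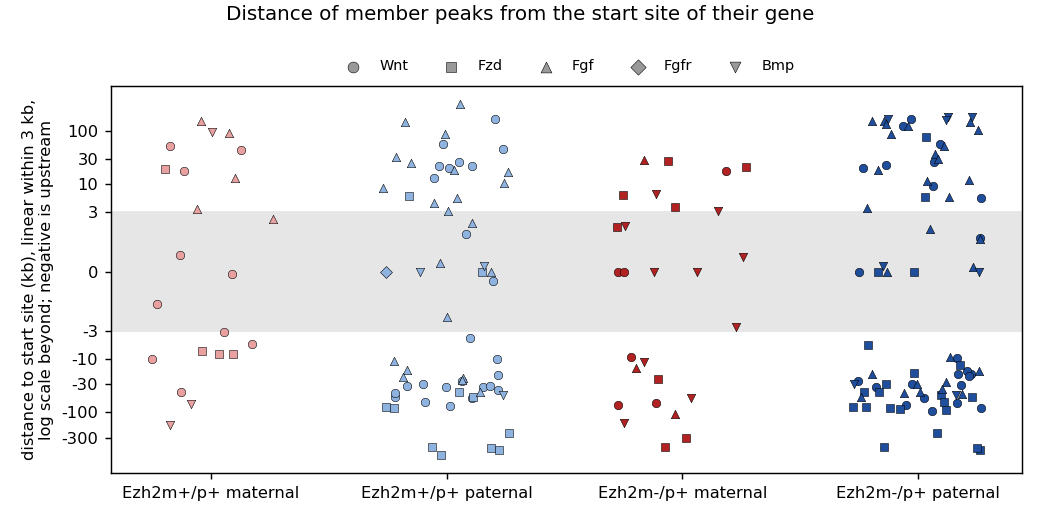
Distance of each of the 194 member peaks from the start site of its gene in kb (y axis, linear within 3 kb and logarithmic beyond, negative upstream) in each list (x axis), with the family as symbol. Grey marks 3 kb on either side of the start. The band holds 4, 10, 8 and 10 peaks from left to right, and the peaks farthest upstream, at up to 635 kb, belong to Fzd8.

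Wnt4, which is needed for the development of the kidney and of the female gonad, had more peaks than any other member, all of them paternal. On chromosome 4 its 10 Ezh2m+/p+ paternal peaks spread over 96.4 kb from 137219201 to 137315599 and covered 69.8 kb of it. The 9 Ezh2m-/p+ paternal peaks spread over 99.6 kb from 137216401 to 137315999 and covered 88.4 kb. The stretch begins upstream of the gene and ends beyond it, and the covered sequence was largely the same: 67.6 kb was shared, which is 96.8% of what the Ezh2m+/p+ peaks and 76.5% of what the Ezh2m-/p+ peaks covered. The longest member peaks of both paternal lists lay upstream of the start, at 137246401 to 137267599 (21199 bp, fold 33.7) in Ezh2m+/p+ and at 137216401 to 137258199 (41799 bp, fold 10.7) in Ezh2m-/p+ zygotes. The largest folds of all members in those lists were also at Wnt4, 126 for the peak of 2599 bp at -490 bp in Ezh2m+/p+ zygotes and 236 for a peak in intron 1 in Ezh2m-/p+ zygotes. Wnt4 lies in sequence rich in paternal peaks: the 1 Mb centred on the gene held 113 paternal peaks in Ezh2m+/p+ zygotes and 87 in Ezh2m-/p+ ones and 0 maternal peaks in both, where the median protein-coding gene had 4 and 5 paternal peaks. As many paternal peaks or more were found around 201 (0.929%) and 326 (1.51%) of the 21631 genes.

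**Figure D3:**
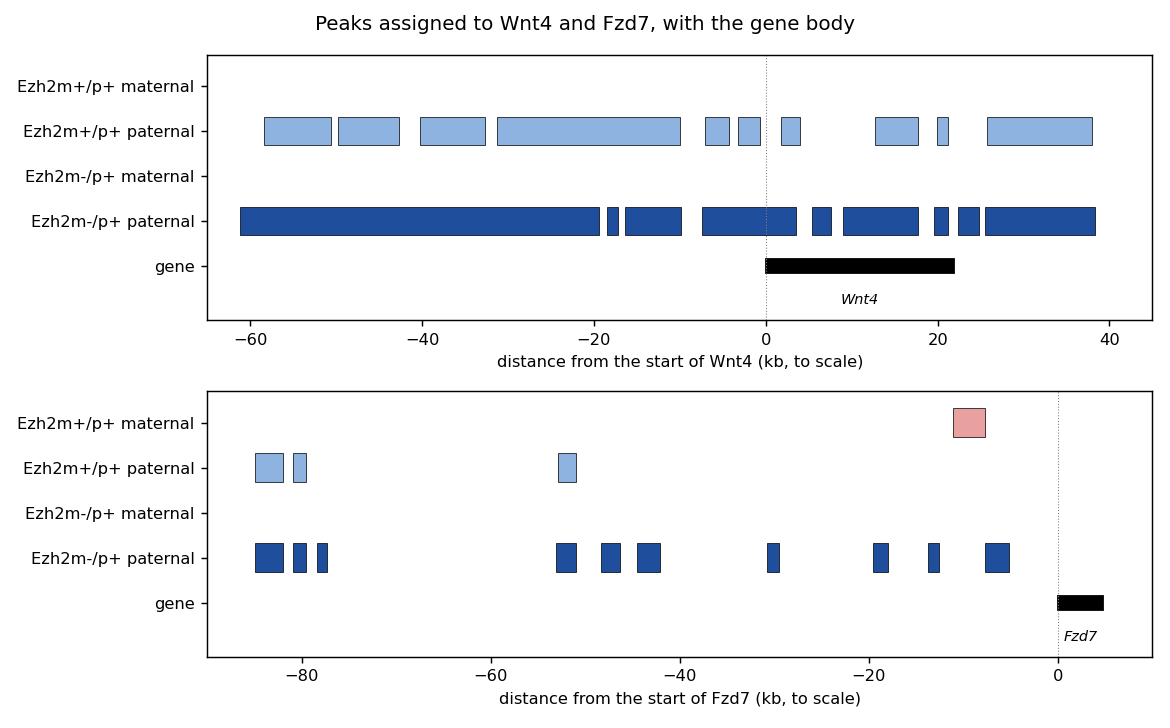
Peaks assigned to Wnt4 (upper panel) and Fzd7 (lower panel) as boxes to scale in each list (rows), with the gene as a black bar and distance from the gene's start in kb (x axis). The paternal rows of both genotypes are filled across Wnt4 (69.8 and 88.4 kb covered) and the maternal rows hold nothing. Upstream of Fzd7 the Ezh2m-/p+ paternal row has 10 boxes and the Ezh2m+/p+ paternal row 3, and the only maternal box is that of Ezh2m+/p+ zygotes.

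Of the other Wnt ligands, Wnt5b, which acts mostly without beta-catenin, had 8 Ezh2m+/p+ and 7 Ezh2m-/p+ paternal peaks on chromosome 6, all upstream of the gene except for an Ezh2m+/p+ peak in its intron 1, and several of them in introns of its neighbour Erc1. They covered 15.2 and 15.0 kb, but only 4.60 kb was shared. Its 2 maternal peaks were in Ezh2m+/p+ zygotes, and the peak of 3999 bp in an intron of Erc1, 41.1 kb upstream, had the largest fold of the Wnt ligands in that list (53.6). Wnt5a, its close relative with a role in limb and gut outgrowth, had 3 maternal peaks in Ezh2m+/p+ zygotes (folds 6.37, 6.37 and 42.9) and none in Ezh2m-/p+ zygotes, while overlapping paternal peaks 167 and 166 kb downstream were listed in both genotypes (folds 60.2 and 19.7). Wnt11, also a ligand of the pathway without beta-catenin, had 4 and 2 paternal peaks and shared those at 98800201 and 98803401 on chromosome 7, which end 33.1 and 29.9 kb upstream in Ezh2m+/p+ zygotes. Wnt2 had overlapping paternal peaks 56.2 and 56.8 kb downstream of its start (folds 9.03 and 7.88), and Wnt8b had 2 paternal peaks, 21.1 and 25.5 kb upstream, in Ezh2m-/p+ zygotes alone.

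Of the 16 maternal Wnt peaks, 8 belonged to Wnt5a, Wnt5b and Wnt16, which had 2 or 3 in a list, and the other 8 were single. Wnt8a, which is expressed at gastrulation, had a maternal peak on its start or within 0.114 kb of it in both genotypes, from 34538601 to 34542199 on chromosome 18 (fold 5.70) in Ezh2m+/p+ and from 34540201 to 34543399 (fold 5.83) in Ezh2m-/p+ zygotes, and a paternal peak 1.69 kb downstream of the start in Ezh2m-/p+ zygotes (fold 23.6). Wnt2b had overlapping maternal peaks just downstream of the gene (folds 5.86 and 6.69). Wnt3, which the embryo needs to form the primitive streak, had a maternal peak 5.35 kb upstream in Ezh2m+/p+ zygotes (fold 36.2) and another 9.15 kb upstream in Ezh2m-/p+ zygotes (21.4), which did not overlap. Both lay within the RefSeq limits of its neighbour Wnt9b, to which no peak was assigned. Wnt3a, which paraxial mesoderm needs, had a maternal peak 1.65 kb upstream of its start in Ezh2m+/p+ zygotes alone (fold 37.5), and Wnt10a, known for teeth and skin appendages, one 838 bp downstream (6.03). Wnt16 had its 3 peaks in the maternal genome of Ezh2m-/p+ zygotes alone, the one on the start with a fold of 39.8 and 2 in introns of its neighbour Cped1 (30.6 and 20.7). The maternal peaks of Wnt8a, Wnt2b and Wnt10a had folds near the limit of the lists and were not counted when a fold over 10 was asked for.

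Among the Frizzled receptors, the peaks of Fzd7 and Fzd8 made up 10 of the 11 paternal peaks in Ezh2m+/p+ zygotes, and 18 of 22 in Ezh2m-/p+ ones. Fzd7, a receptor used by embryonic stem cells, had 3 paternal peaks 51.2 to 82.2 kb upstream in Ezh2m+/p+ zygotes, all of which overlapped an Ezh2m-/p+ peak. In Ezh2m-/p+ zygotes 10 peaks were spread from 82.2 to 5.42 kb upstream, so that the covered sequence was 6.40 kb and 18.6 kb. The 1 Mb around the gene held 21 and 40 paternal peaks. The maternal peak of Fzd7 in Ezh2m+/p+ zygotes (59471001 to 59474399 on chromosome 1, fold 37.5) lay next to the nearest paternal peak of Ezh2m-/p+ zygotes, from 59474401 to 59476999 (fold 17.7), with 1 bp between them.

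Fzd8, on chromosome 18, had 7 and 8 paternal peaks, which lay on its start and up to 635 kb upstream in Ezh2m+/p+ zygotes and up to 496 kb upstream in Ezh2m-/p+ ones. Of the 7 Ezh2m+/p+ peaks, 6 overlapped an Ezh2m-/p+ peak, among them the one on the start site (9211001 to 9212999, fold 72.2, and 9211001 to 9212799, fold 11.8). The maternal genome had 2 peaks, 446 and 300 kb upstream, in Ezh2m-/p+ zygotes. Fzd4, a receptor that retinal vessels need, had a paternal peak in its 3′ UTR in both genotypes, with a fold of 48.1 in Ezh2m+/p+ and of 181, the largest of the Frizzled receptors, in Ezh2m-/p+ zygotes.

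Fzd5, which the placenta and the yolk sac need, carried maternal peaks in both genotypes. The pair at 64713801 to 64718199 on chromosome 1 (fold 9.05) and at 64714001 to 64717199 (fold 32.9) lay over an exon of the neighbouring gene Ccnyl1, 19.6 and 20.6 kb downstream of the start of Fzd5. A further Ezh2m-/p+ maternal peak in its 3′ UTR had the largest fold of the Frizzled receptors in that list (37.5). Fzd6, which orients hairs on the skin, had 3 maternal peaks in Ezh2m-/p+ zygotes alone, with folds of 29.8 to 31.4, and Fzd9 had 1, 2.23 kb downstream of its start (29.8). Fzd2 had a maternal peak 8.20 kb upstream in Ezh2m+/p+ zygotes (fold 5.70) and, in Ezh2m-/p+ zygotes, a paternal peak of 3399 bp over its start (26.6). Fzd1 had 2 paternal peaks in Ezh2m-/p+ zygotes, 75.0 kb downstream and 91.2 kb upstream.

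Of the Fgf ligands, 5 lie in 2 gene clusters. Fgf3, Fgf4 and Fgf15 follow each other on chromosome 7. Fgf3 acts in the inner ear, Fgf4 is the ligand by which the inner cell mass signals to the trophectoderm and to the primitive endoderm, and Fgf15 is a gut hormone that restrains bile acid synthesis. Together they had 4 Ezh2m+/p+ and 8 Ezh2m-/p+ paternal peaks between 144796001 and 144899999, which covered 6.80 and 14.2 kb. Each of the 4 overlapped 1 of the 8, and 5.40 kb was shared, 79.4% of what the Ezh2m+/p+ peaks and 38% of what the Ezh2m-/p+ peaks covered. Within 3 kb of a start site were an Ezh2m-/p+ peak 215 bp downstream of the start of Fgf4 (fold 15.8) and peaks in both genotypes downstream of that of Fgf15 (folds 6.02 and 8.87). The only maternal peak of the cluster, at 144850801 to 144852199 (fold 5.19), was assigned to Fgf4 in Ezh2m+/p+ zygotes. It lay 9.19 kb upstream of the RefSeq start of Fgf4, outside the RefSeq limits of the gene, and its fold was near the limit of the lists.

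**Figure D4:**
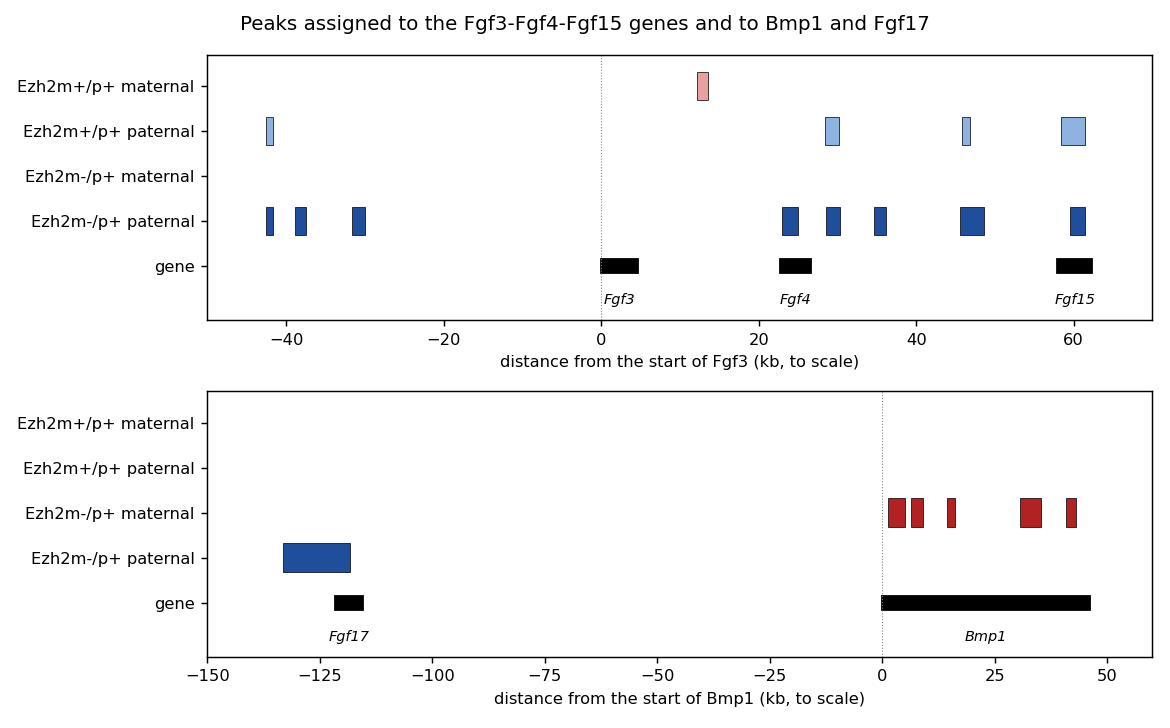
Peaks assigned to Fgf3, Fgf4 and Fgf15 (upper panel) and to Bmp1 and Fgf17 (lower panel) as boxes to scale in each list (rows), with genes as black bars and distance from the start of Fgf3 or Bmp1 in kb (x axis). In the upper panel each of the 4 Ezh2m+/p+ paternal boxes has an Ezh2m-/p+ paternal box at its place. In the lower panel the 5 maternal boxes over Bmp1 and the paternal box over Fgf17 are all from Ezh2m-/p+ zygotes.

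Fgf6, expressed in muscle, and Fgf23, the bone hormone that lowers phosphate, form the other cluster, on chromosome 6. They had 6 Ezh2m+/p+ paternal peaks, which covered 14.8 kb, and 3 Ezh2m-/p+ paternal peaks, which covered 8.40 kb, with 5.80 kb shared. The shared peaks were those of Fgf6, in intron 2 (folds 17.3 and 9.85) and 16.8 and 18.2 kb downstream of the start (10.5 and 17.0). The peak 2.30 kb upstream of Fgf23 (fold 48.1) was listed in Ezh2m+/p+ zygotes alone. The paternal genome around both clusters was rich in peaks, with 24 to 34 in 1 Mb in Ezh2m+/p+ zygotes and 28 to 33 in Ezh2m-/p+ ones.

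The other Fgf genes stood alone. Fgf12, which encodes a protein that stays inside the cell and binds sodium channels, had 3 and 4 paternal peaks in and around its long first intron, of which 0 overlapped between genotypes, at up to 221 and 262 kb downstream of its RefSeq start, and the Ezh2m-/p+ peak 26.7 kb upstream had the largest fold of the Fgf ligands in its list (142). Fgf10, which limb and lung buds need, had 2 and 5 paternal peaks, and shared the one at 118862001 on chromosome 13, 147 kb downstream of the start (folds 36.1 and 63.0). Fgf18, which acts in bone and cartilage, had 1 and 4 paternal peaks and shared the one 86.0 and 85.6 kb downstream (54.2 and 7.88). Its 2 maternal peaks were in Ezh2m+/p+ zygotes, and the one of 3999 bp had the largest fold of the Fgf ligands in that list (48.3). Fgf7, the keratinocyte growth factor, had a paternal peak 2.43 kb downstream of its start in Ezh2m+/p+ zygotes (84.3, the largest of the Fgf ligands there) and in Ezh2m-/p+ zygotes 2 peaks of fold 94.6, 44.9 and 50.5 kb upstream, the nearer in an exon of Fam227b. Fgf1 had 3 and 1 paternal peaks, and 1 Ezh2m-/p+ maternal peak (fold 5.45), of which the Ezh2m+/p+ and the maternal ones lay in introns of Arhgap26. Its Ezh2m-/p+ paternal peak was 2.16 kb downstream of the start (fold 6.90).

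Fgf17, used by the midbrain and cerebellum, had 1 peak, of 14799 bp over its start in the paternal genome of the Ezh2m-/p+ group, with a fold of 5.59. It overlapped an Ezh2m+/p+ paternal peak that was assigned to another gene, so that the sequence carried a paternal peak in both genotypes. Fgf2 had a maternal peak in Ezh2m+/p+ zygotes alone, 2.65 kb downstream of the start of a shorter transcript and 34.9 kb downstream of the RefSeq start of the gene, and its fold of 5.03 was the lowest of all member peaks. Fgf16, on chromosome X, had a maternal peak in Ezh2m-/p+ zygotes (fold 31.4), 107 kb upstream. The remaining Fgf ligands had 1 peak each. Fgf5, which ends the growth of hair, had a paternal peak 25.2 kb upstream in Ezh2m+/p+ zygotes (fold 36.1), Fgf20 a paternal peak 104 kb downstream in Ezh2m-/p+ zygotes (7.88), and Fgf21, a hormone of the fasting liver, a maternal peak 13.3 kb downstream of its start in Ezh2m+/p+ zygotes (6.2). Fgfr1, a receptor that the embryo needs at gastrulation, had a paternal peak of 1999 bp in Ezh2m+/p+ zygotes (25530601 to 25532599 on chromosome 8, fold 60.2), on the start of a shorter transcript and 11.8 kb downstream of the RefSeq start of the gene. No peak of any list was assigned to Fgfr2, Fgfr3 or Fgfr4.

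Among the Bmp genes, Bmp4 and Bmp7 had paternal peaks of the same limits in both genotypes at their starts. Bmp4, which primordial germ cells and mesoderm need, had a peak from 46388001 to 46390599 on chromosome 14, with a fold of 72.2 in Ezh2m+/p+ and of 8.54 in Ezh2m-/p+ zygotes, and a further pair of overlapping peaks 47.3 and 46.5 kb upstream (folds 72.2 and 11.8). At Bmp7, which kidney and eye need, the shared peak was at 172937801 to 172939799 on chromosome 2, 293 bp downstream of the start, with folds of 78.2 and 6.57. Bmp7 also had 4 paternal peaks 156 to 181 kb downstream in Ezh2m-/p+ zygotes (folds 11.8 to 94.6) and a maternal peak 94.3 kb downstream in Ezh2m+/p+ zygotes (7.87). The 1 Mb around Bmp4 held 25 and 36 paternal and 0 maternal peaks.

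The Bmp genes had 3 maternal peaks in Ezh2m+/p+ zygotes and 10 in Ezh2m-/p+ ones, or 0.522 and 1.04 per 1000 peaks of lists of 5744 and 9606 peaks. Of the 10, 5 lay along Bmp1, which is not a ligand but a secreted metalloprotease that cleaves procollagen and the Bmp antagonist chordin. They covered 15.4 kb from 70477801 to 70519399 on chromosome 14, and the peak of 4799 bp on the start site of a shorter transcript, at 70485401 to 70490199, had the largest fold of the members in that list (57.4) and was its longest member peak. The 1 Mb around Bmp1 held 1 maternal peak in Ezh2m+/p+ zygotes and 31 in Ezh2m-/p+ ones, beside medians of 2 and 4 over all genes, and 44 and 34 paternal peaks. Bmp2, which heart and amnion need, had 2 maternal peaks in Ezh2m+/p+ zygotes, the one of 6599 bp, 172 kb upstream, with the largest fold (61.7) and length of the members in that list, and 1 in Ezh2m-/p+ zygotes (157 kb upstream, fold 47.4), which did not overlap them. Bmp5, Bmp6 and Bmp8b, the last of which acts with Bmp4 on germ cells, had maternal peaks in Ezh2m-/p+ zygotes alone, 1, 2 and 1 in number. Those inside Bmp5 (fold 21.4), Bmp6 (26.0) and Bmp8b (38.2) lay 39.6, 51.9 and 17.3 kb downstream of the RefSeq start of the gene, though nearer to a start of a shorter transcript, and the other Bmp6 peak lay 52.9 kb upstream (21.4).

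No peak was assigned to 21 members: Wnt1, Wnt6, Wnt7a, Wnt7b, Wnt9a, Wnt9b, Wnt10b, Fzd3, Fzd10, Fgf8, Fgf9, Fgf11, Fgf13, Fgf14, Fgf22, Fgfr2, Fgfr3, Fgfr4, Bmp3, Bmp8a and Bmp10. For 4 of them, Bmp3, Fgf9, Fgf13 and Fgf14, the 1 Mb around the gene held no peak of any list. How many of all genes had such an empty window is not given here. Around the other 17 there were peaks that belonged to other genes, with up to 26 paternal peaks around Wnt9a in each genotype. The maternal peaks assigned to Wnt3, in both genotypes, lay within the RefSeq limits of Wnt9b. Lists of peaks over a limit do not show that the mark is absent at a gene without a peak.

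Folds are not comparable in size between lists, since they took few distinct values and their medians differed between lists over all peaks. The 62 Ezh2m+/p+ paternal member peaks had 21 distinct folds, and 51 of the 62 shared their fold with another member peak. In the Ezh2m-/p+ paternal list 61 of 83 did. An order of peaks by fold within a list is therefore coarse as well, and the number of reads behind a large fold is unknown. The median fold of member peaks was 7.37 (95% interval 6.03 to 37.5) in the Ezh2m+/p+ maternal and 48.1 (36.1 to 48.1) in the paternal list, beside 7.37 and 36.1 over all peaks. In Ezh2m-/p+ zygotes the medians were 29.8 (21.4 to 31.4) and 15.8 (11.8 to 20.2), beside 23.7 and 15.8. Median lengths were 3199 and 1699 bp in the Ezh2m+/p+ and 2199 and 1799 bp in the Ezh2m-/p+ maternal and paternal lists, beside 2999, 1799, 2199 and 1999 bp over all peaks.

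**Figure D5:**
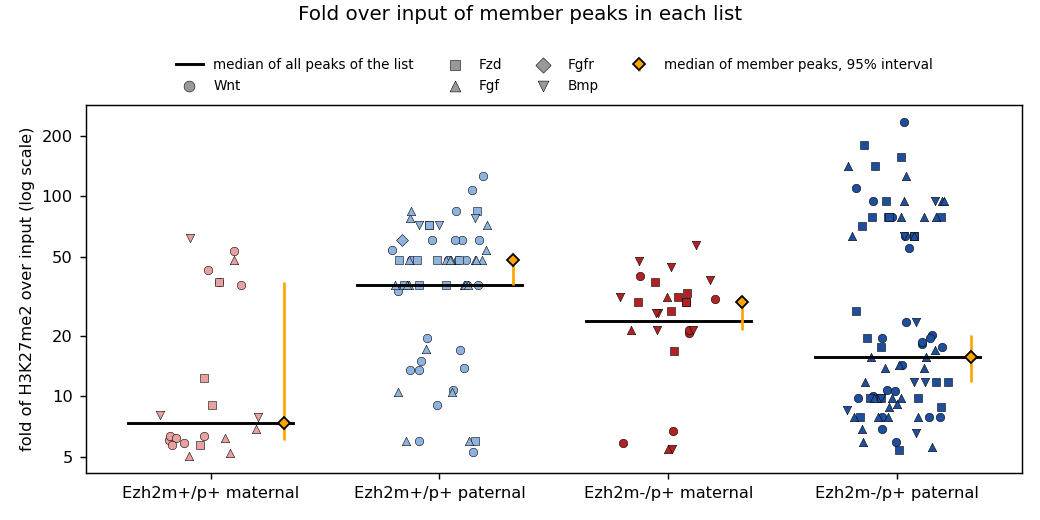
Fold of H3K27me2 over input (y axis, log scale) of each member peak in each list (x axis), with the family as symbol. The black line is the median of all peaks of the list and the orange diamond the median of the member peaks with its 95% interval. The Ezh2m+/p+ paternal points lie in rows of equal values, and the member medians (7.37, 48.1, 29.8 and 15.8) are close to those of the lists.

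The other genes of the 3 pathways were counted in the same way. Of 46 Wnt pathway genes (co-receptors, secreted inhibitors, the destruction complex and transcription factors), 9 and 16 had a maternal and a paternal peak, respectively, in Ezh2m+/p+ zygotes and 18 and 21 in Ezh2m-/p+ ones. Of 28 FGF pathway genes, it was 9 and 6, and 12 and 7, with more genes with a maternal than a paternal peak in both genotypes, whereas the Fgf ligands had more with a paternal peak (4 and 11, and 3 and 12). Of 42 BMP pathway genes (receptors, Smads, antagonists and related ligands), it was 11 and 16 in both genotypes. Of all genes, 14.6% had maternal peaks and 20.3% had paternal ones in the Ezh2m+/p+ group, and 21.1% and 23.8% in the Ezh2m-/p+ group, where the Wnt pathway genes had 19.6%, 34.8%, 39.1% and 45.7%, the FGF pathway genes 32.1%, 21.4%, 42.9% and 25%, and the BMP pathway genes 26.2%, 38.1%, 26.2% and 38.1%. None of these differences was tested.

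Of the 25 peaks within 1 kb of a start site of these genes, 21 were paternal (84%, 65.3 to 93.6%, beside 75.3% over all genes), and 6 of the 15 genes with such a paternal peak had it in both genotypes (40%, 19.8 to 64.3%, beside 43.4%). Among Wnt pathway genes, Sfrp4, a secreted Wnt inhibitor, had one in both (folds 48.1 and 7.88), and so did Apc, a scaffold of the destruction complex (7.52 and 6.75), whereas Lrp5, a co-receptor (78.8), Kremen2 (63.0), Lgr4, a receptor of R-spondins (11.8), and Dvl1 (5.42) had one in Ezh2m-/p+ zygotes alone. Among BMP pathway genes, Id2, a target of Smad signalling (36.1 and 94.6), Acvrl1, a receptor of endothelium (72.2 and 142), and the antagonist Nbl1 (9.83 and 19.3) had paternal peaks in both. Gdf5 (94.6), the antagonist Sostdc1 (11.8) and Acvr2b, an activin receptor (63.0), had one in the paternal genome of the Ezh2m-/p+ group. Maternal peaks at a start were those of Smad1 (5.53) and Acvr2b (6.87) in Ezh2m+/p+ and of Tll1, a relative of Bmp1 (20.7), in Ezh2m-/p+ zygotes. Of the FGF pathway genes, Spred3, an inhibitor of the Ras pathway, had a maternal peak in Ezh2m+/p+ zygotes (34.8), and Fgfrl1, a receptor without a kinase (63.0), and Il17rd, an inhibitor of Fgf signalling (134), had paternal peaks in Ezh2m-/p+ zygotes.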

How the data were processed

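H3K27me2 ULI-NChIP-seq of PN5 zygotes was analysed in 2 genotypes, with 1 library and 1 input each. Per the submitters' processing notes, Trimmomatic 0.38, Bowtie2 (mm10), SAMtools, Picard and SICER were used, the last to find peaks over the input. The authors assigned reads to a strain with SNPsplit. Peaks were annotated by the authors with ChIPseeker. The deposited lists give for each peak a ratio, the fold of H3K27me2 over input. A deposited table of coverage holds, per chromosome, the fraction with reads, and its 42 values for oocytes were not used. No read counts of the parental genomes were used here, so the depth behind a peak is unknown. For whole libraries, the paper reports fewer clean and uniquely mapped reads in the Ezh2m-/p+ group than in the Ezh2m+/p+ group. This holds for both H3K27me2 and input. SNPsplit assigns only reads that cover a strain variant, so sequence with few variants can give no peak.

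Gene identifiers were matched to RefSeq symbols (11459 of 11472), and protein-coding genes of chromosomes 1 to 19 and X were the background. All 56036 peaks lay within the chromosomes of GRCm38, and all 61 transcripts named for member peaks had the same limits in GENCODE vM21. Distances are those of the lists unless the RefSeq start is named, and are taken from the nearest transcript start, which for some genes (among them Wnt2, Wnt5a, Wnt10a and Fzd6) is not the outermost. Wilson intervals and intervals of medians from order statistics were at 95%. Scripts ran under Python 3.11.15 (matplotlib 3.10.9, scipy 1.17.1, pandas 2.3.3, numpy 2.4.6), and overlap and assignment were tested on simulated data. Alternatives asked for a fold over 10 or a length over 2000 bp, or used assignment by gene body with 3 kb, peaks within 100 kb, lists of equal size (the 5744 peaks of largest fold), autosomes only and a reciprocal overlap of 50%. Members and gene lists were chosen with earlier results of these data known. Named members were those with a peak within 3 kb of a start site, with most peaks or the largest fold of a family and list, the longest peak of a list, overlapping peaks in both genotypes, peaks in both parental genomes of a genotype, or no peak. Of other pathway genes, those with a peak within 1 kb of a start were named, except for a result that is not reported here. Bmp5, Bmp6, Fgf5, Fgf20, Fgf21, Fzd1, Wnt3 and Wnt8b were named beyond this rule after their values were seen. Of the members with a peak over a start site, promoters were printed for Bmp4 and Fgf12 by rule, and for Wnt4 and Wnt16, chosen after their values were seen.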

Additional observations from a re-analysis of the deposited data

Results flagged for a closer look

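The number of peaks assigned to Fgf ligands was lower in Ezh2m-/p+ than in Ezh2m+/p+ zygotes for maternal peaks and higher for paternal peaks. In the maternal genome Ezh2m-/p+ minus Ezh2m+/p+ was -2 peaks (3 and 5), and in the paternal genome it was 7 peaks (29 and 22). The difference between the parental genomes was not tested. Per 1000 listed peaks, the Fgf ligands had 0.870 and 0.312 maternal peaks in Ezh2m+/p+ and Ezh2m-/p+ zygotes, and 1.23 and 1.27 paternal peaks. The 5 maternal peaks of Ezh2m+/p+ zygotes were those of Fgf2, Fgf4, Fgf18 (2 peaks) and Fgf21, and the 3 of Ezh2m-/p+ zygotes those of Fgf1, Fgf12 and Fgf16, so that 0 of 7 Fgf ligands with a maternal peak had it in both genotypes (95% interval 0 to 35.4%), beside 31.0% of all genes.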

How the results depend on the processing

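No paired analysis was possible because each genotype had 1 library. Of 72 values recomputed under another setting, 52 stayed within the 95% interval of the value reported, among them all 8 with peaks within 100 kb of the start and all 12 with autosomes only. At a fold over 10, 12.3% of members had an Ezh2m+/p+ maternal peak (7.34% of all genes), and 0% of maternal and 33.9% of paternal member peaks overlapped between genotypes. At a length over 2000 bp, 12.3%, 13.8% and 21.5% of members had an Ezh2m+/p+ paternal, an Ezh2m-/p+ maternal and an Ezh2m-/p+ paternal peak (9.81%, 13.3% and 14.8% of all genes), 46.7% of members with a paternal peak had it in both genotypes, 73.7% of paternal peaks overlapped (74.2% of all), 5.88% of Ezh2m+/p+ maternal peaks were within 3 kb, and the median folds were 17.3 (Ezh2m+/p+ paternal) and 32.1 (Ezh2m-/p+ maternal). By gene body, 12.3% (Ezh2m+/p+ maternal) and 23.1% (Ezh2m-/p+ paternal) of members had a peak, 0% had peaks in both parental genomes of Ezh2m+/p+ zygotes, and 52.4% with a paternal peak had it in both genotypes. With lists of equal size, 20%, 15.4% and 16.9% of members had an Ezh2m+/p+ paternal, an Ezh2m-/p+ maternal and an Ezh2m-/p+ paternal peak, and 41.2% with a paternal peak had it in both genotypes. With a reciprocal overlap of 50%, 43.5% of paternal member peaks overlapped. This share has no value over all peaks beside it, and neither have the 5.88% (1 of 17 peaks) and the median folds at a length over 2000 bp. These values therefore do not show a change particular to the members. Shorter lists follow from the construction of the first 2 settings and of equal sizes. The cause of the other differences was not tested. In lists of equal size the paternal lists no longer held more members than the Ezh2m+/p+ maternal list (16 members, 24.6%).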

Other observations

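The sequence around Bmp1 and Fgf17 on chromosome 14 held many maternal peaks in Ezh2m-/p+ zygotes alone. In the 1 Mb centred on Bmp1 there were 31 maternal peaks in Ezh2m-/p+ zygotes but 1 in Ezh2m+/p+ ones, and around Fgf17 25 and 1. A difference of 30 peaks or more between the maternal lists was found around 58 of 21631 protein-coding genes (0.268%), and of 24 or more around 87 (0.402%). Genes that lie close together share their windows, so these counts are not of independent places. The paternal lists held 44 and 34 peaks around Bmp1, and 61 and 49 around Fgf17, in Ezh2m+/p+ and Ezh2m-/p+ zygotes. These windows were chosen after their values were seen, and there was no second library of either genotype in which to look for the same pattern.

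The 11 members with maternal peaks alone that had a promoter in the table had a median of 68% G+C and 22 CpG in the 250 bases upstream of the start, and the 13 with paternal peaks alone 61.2% and 11 CpG. The ranges of both groups overlapped, from 4 to 42 and from 4 to 44 CpG, and the difference was not tested.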
